A study of Mus musculus with 30 samples.

Results

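The comparison described here sets mouse embryonic stem cells whose METTL14 was replaced by an arginine mutant against the wild-type cells they are compared with in the study. It uses 6 lists of called N6-methyladenosine (m6A) peaks out of 15 in the series, 3 from wild-type cells (labelled WT) and 3 from the mutant line (labelled KO_13RK). A peak is a called bin of 100 nt on one strand of a gene. The 6 lists held 44036 distinct bins in 11655 genes. A bin or gene was counted as lost when all 3 WT lists and none of the 3 KO_13RK lists called it, and as gained in the reverse case.

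All cells were of the C57BL/6 strain, grown on gelatin in medium with serum and leukemia inhibitory factor, and no treatment separates the groups. The WT group is a wild-type line. The KO_13RK group is a METTL14 knockout line into which a METTL14 deficient in arginine methylation, named 13RK by the submitters, was put back. KO_13RK therefore differs from WT by the knockout, the rescue construct and the mutation together, and these cannot be told apart in this comparison. Values of the knockout alone (KO), of the knockout rescued with wild-type METTL14 (KO_WT) and of the knockout rescued with the 5RK mutant (KO_5RK) are set beside the results for that reason. The labels say neither how many clones each line comes from nor whether replicates were separate cultures, so a p-value here reflects list-to-list spread, which may be technical.

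m6A is a methyl group on internal adenosines of messenger RNA, found most often in long exons, around stop codons and in 3′ untranslated regions. It is written by a complex in which METTL3 is the catalytic subunit and METTL14 holds the RNA, with WTAP and further proteins that guide the complex to its targets. Reader proteins of the YTH family bind the mark and alter splicing, export, translation and decay of the RNA. In mouse embryonic stem cells, m6A marks transcripts of many pluripotency factors and is known for its part in their timely decay when cells leave the naive state. The disordered C-terminal tail of METTL14 is rich in arginines that protein arginine methyltransferases modify, and the series title links that methylation to DNA repair.

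Cells with 13RK METTL14 had fewer than 1 called peak for every 2 in wild-type cells. The WT lists held 23164, 22668 and 22217 peaks, and the KO_13RK lists held 9747, 9588 and 10980. The means were 22683 ± 474 and 10105 ± 762 (SD, n = 3), a difference of 55.5%, and the groups did not overlap. Genes with a peak numbered 7846 ± 54.4 per WT list and 5274 ± 273 per KO_13RK list (n = 3), which is 32.8% fewer. A gene with a peak held 2.89 bins on average in WT and 1.91 in KO_13RK, and the share of such genes with a single bin was 38.2% in WT and 55.9% in KO_13RK. The two-sided exact permutation p was 0.1 for each of these measures, the smallest that 3 lists against 3 can give, so no such comparison could pass 0.05. Read depth is unknown for these lists, and its part in the number of peaks called was not tested.

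**Figure D1:**
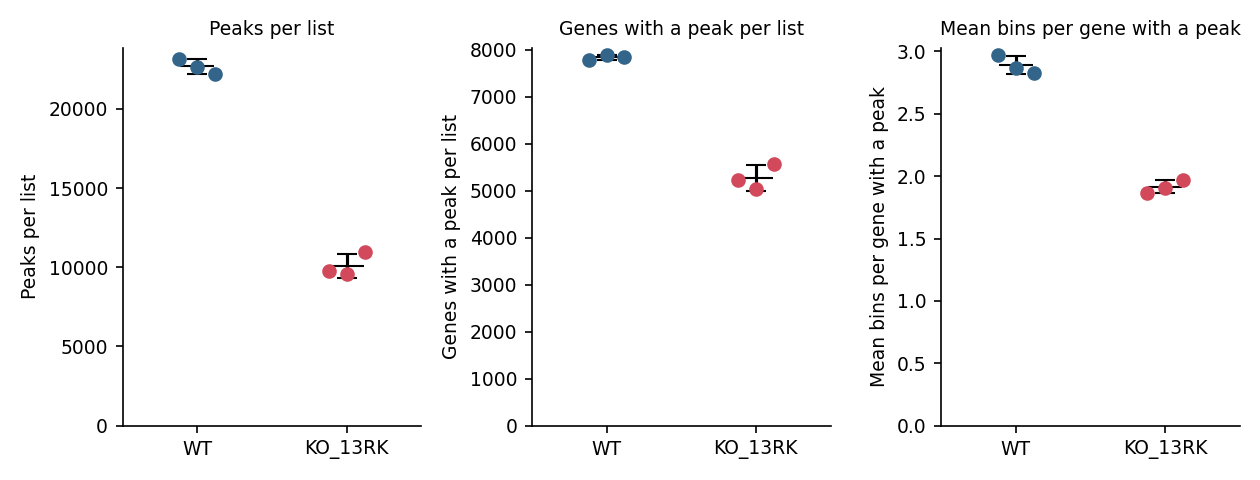
Peaks per list (left), genes with a peak per list (middle) and mean bins per gene with a peak (right), for the 3 WT and 3 KO_13RK lists. Points are lists and bars are the mean ± SD, and in each panel every KO_13RK list lies below every WT list.

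Lists of one line resembled each other more in WT than in KO_13RK. The median share of bins in common between 2 lists (bins in both, divided by bins in either) was 0.450 for pairs of WT lists, 0.296 for pairs of KO_13RK lists and 0.223 between the lines. For genes the same shares were 0.670, 0.466 and 0.464. By this share, pairs of KO_13RK lists were at the gene level no closer than a WT list and a KO_13RK list. The share is also limited by unequal list length, and WT lists were the longer ones. The value between the lines therefore cannot be read as a measure of likeness. No pair of lists held more than 11 bins with an identical enrichment value and p, so no list was a copy of another.

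Of the 11324 bins called in all 3 WT lists, 4294 were lost (37.9%). A further 2496 were called in 1 KO_13RK list, 1901 in 2, and 2633 in all 3 (23.3%). Lost bins were 9.75% of all bins of the 6 lists and gained bins 0.318% (140 bins). The peaks that the mutant line held in every list were mostly wild-type peaks, since of the 3285 bins that every KO_13RK list called, 80.2% were found in each WT list too. Per gene the lost share was lower, which the rule favours, since any called bin is enough for a gene to count as called. Of 5631 genes called in all WT lists, 871 were lost (15.5%) and 2353 were called in all 6 lists, while 39 genes were gained. Lost genes were 7.47% and gained genes 0.335% of the 11655 genes. Only 21.4% of the lost bins lay in genes lost as a whole. The 4294 lost bins were spread over 2606 genes, of which 874 were called in all 6 lists and so had other bins in every KO_13RK list. Whether those other bins were wild-type bins was not counted. When the 6 lists were cut to an equal length of 9588 peaks, keeping those with the smallest p, 1147 bins were lost and 480 gained, and 285 genes were lost and 299 gained. Lists of equal length cannot differ in peak number, so these counts show only which genes are ranked high.

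**Figure D2:**
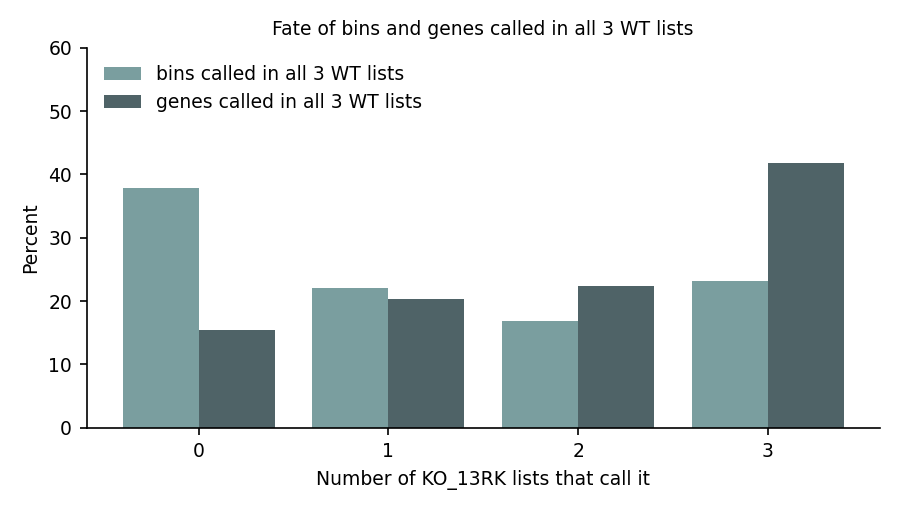
Percent of the bins (light bars) and genes (dark bars) called in all 3 WT lists that were called in 0, 1, 2 or 3 KO_13RK lists. Bins were most often in none (37.9%), and genes, for which any called bin is enough, most often in all 3 (41.8%).

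Strong wild-type peaks were found again in the mutant line more often than weak ones. Among bins called in all WT lists, split by deposited p into 4 groups of 2831 bins, those of the strongest group (smallest p) were called in a KO_13RK list in 67.2% ± 3.08 of cases (SD over 3 lists), against 25.9% ± 1.99 in the weakest group. Bins within 500 nt of the annotated gene start were called in 55.0% ± 7.67 of cases (335 bins), bins within 2000 nt of the gene end in 38.2% ± 4.24 (3535 bins), and bins elsewhere in 41.9% ± 2.95 (6031 bins). Bins near the start were called most often in each of the 4 groups. In the strongest group, 85.9% ± 2.94 of the 52 start bins were called, against 64.4% ± 5.10 of end bins and 66.1% ± 3.72 of the others. Bins in genes longer than 100000 nt were called in 29.4% ± 3.12 of cases and those in genes of up to 10000 nt in 54.1% ± 2.20. A bin next to another such bin was called in 46.3% ± 2.81 of cases and a bin on its own in 36.2% ± 2.14. These shares are descriptions with no test, because bins share genes and lists.

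**Figure D3:**
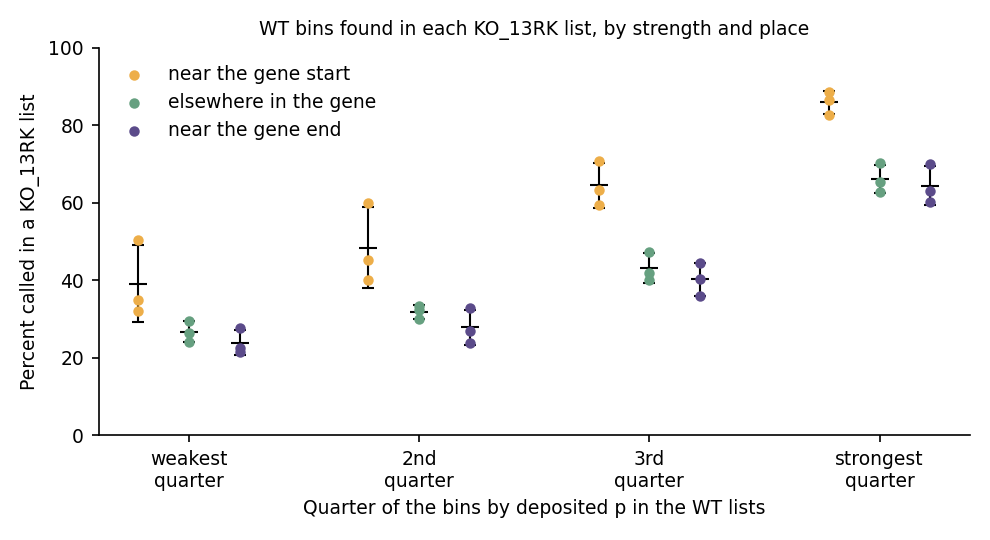
Percent of bins called in all 3 WT lists that each KO_13RK list also called, by 4 groups of the deposited p in WT and by place in the gene. Points are the 3 KO_13RK lists and bars are the mean ± SD, and the mean of start bins lies above that of end bins in each group (85.9% against 64.4% in the strongest).

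In each KO_13RK list a larger share of placed peaks lay near the gene start, and a smaller share near the gene end, than in each WT list. The start shares were 4.10%, 5.19% and 4.94% in the WT lists and 6.45%, 8.88% and 5.77% in the KO_13RK lists. In number, start peaks were 943 per list in WT and 612 in KO_13RK, and peaks near the gene end 6762 and 2691. Without KO_13RK replicate 2, whose start share was the highest, the start shares differed by 1.37 percentage points on average instead of 2.29. The end share was 34.0% ± 0.522 in WT and 30.5% ± 2.13 in KO_13RK (n = 3). The exact permutation p was again 0.1 for each. Of the lost bins that could be placed, 1.78% lay near the start and 39.2% near the end, of the bins in all 6 lists 5.05% and 33.7%, and of the 121 placed gained bins 14.9% and 22.3%.

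Because start bins were kept most often, the first transcribed bases under bins of both kinds are shown for the start bins that were ranked highest by enrichment value and covered all 30 bases. The first 3 were called in all 6 lists and the last 3 were lost. They are read 5′ to 3′ from RefSeq (GRCm38.p6), and capitals mark a match to the m6A motif read as A or G, then GAC, then any base but G, on the transcribed strand. Fancl and Sub1 also hold a match on the other strand, which is left in lower case.
Malat1, chr19:5802643-5802672, minus strand: caggcattcaggcagcgagagcagagcagc
Fancl, chr11:26387084-26387113, plus strand: agcAGACCagttggcccagttcattgtcca
Cct3, chr3:88297135-88297164, plus strand: tgtcattcctgaggaggcagcgttttcttc
Efcab14, chr4:115737770-115737799, plus strand: aagtgagctaAGACTggagctatggcccgg
Ndufa7, chr17:33824645-33824674, plus strand: cgcgttatccaaaagctgcggaactgggcg
Sub1, chr15:11995978-11996007, minus strand: tcagtccggagtaggcgagcgagcgaggca

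On the transcribed strand, each group of 3 has 1 start with a motif. Malat1 is a long nuclear noncoding RNA, Fancl encodes the ubiquitin ligase subunit of the Fanconi anemia complex, and Cct3 a subunit of the cytosolic chaperonin. Ndufa7 encodes a subunit of respiratory complex I and Sub1 a transcriptional coactivator. In the first 50 transcribed bases, 1 of 13 starts under bins of all 6 lists and 4 of 11 starts under lost bins held the motif on the transcribed strand, against 28.3% of all 32851 RefSeq starts. On the other strand 3 of those 13, 3 of those 11 and 27.2% of all starts held it. An A as the first base was found in 4 of those 13, in 3 of those 11 and in 34.4% of all starts. Antibodies to m6A also bind the related mark m6Am next to the cap, and these lists cannot tell the marks apart. The numbers of kept and lost starts are too small for a comparison, and the search was chosen after the data were seen.

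Per gene, the fall in bins was general. Of 5419 genes with a mean of at least 1 bin per list, 1983 (36.6%) had fewer bins in every KO_13RK list than in any WT list, and 30 (0.554%) had more. The linear model fit of limma on log2(bins + 1) called 1467 genes (27.1%) lower and 23 (0.424%) higher at a Benjamini-Hochberg adjusted p under 0.05. The median difference over all tested genes was -0.81 on that log2 scale. Of the 1467 lower genes, 399 had no bin in any KO_13RK list and 543 still had bins in all 3. When bins were divided by the list total, which brings the median difference to 0.01, limma called 186 genes lower and 87 higher of 5054. All 186 were among the 1467. On simulated lists limma's calls for single genes were unreliable, with 25 of 200 genes changed by 4-fold recovered beside 60 unchanged genes called, over 6674 genes. Without WT replicate 1, 2 or 3, limma called 498, 489 and 565 lower genes. The bin number in every list is therefore given with each gene.

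The falls named first are the largest in bin number, which only genes with many wild-type bins can show. Bins of genes with over 10 bins were called in a KO_13RK list in 40.9% ± 4.01 of cases and those of genes with up to 2 bins in 41.6% ± 0.964. Dst, which encodes the cytoskeletal linker dystonin, had 85, 75 and 77 bins in the WT lists and 0, 0 and 6 in the KO_13RK lists. Its log2 difference was -5.38 (SE 0.836, limma adjusted p = 0.0154), and the only mutant list with any Dst bin was replicate 3. Srrm2, which encodes a scaffold protein of nuclear speckles, had 70, 61 and 71 bins in WT and 11, 12 and 19 in KO_13RK. Akap12, an anchor for protein kinase A, had 49, 46 and 51 in WT and 1, 6 and 2 in KO_13RK. Fn1, the extracellular matrix gene for fibronectin, had 30, 23 and 23 bins in WT and 0 in each KO_13RK list. These 4 genes were taken for large falls without overlap, so the distance between the groups follows from the choice. Kat6b, a histone acetyltransferase gene, had 26, 31 and 28 bins against 2, 6 and 2. Ankrd11, a chromatin regulator gene, had 24, 27 and 23 against 1, 0 and 2, and the importin gene Kpna1 had 25, 28 and 35 against 12, 6 and 3. Of these 7 genes, Kpna1 was no longer called after division by the list total, and the other 6 were. Kat6b, Ankrd11 and Kpna1 were named here after their values were seen, in place of gene models that hold bins of many genes. The naming rule also gave Kat6b from a chromatin list. The gene models Gm20388, Fgfr2, Gm26904 and Gm26561, also among the 8 largest falls, have bins spread over 4434300, 2731800, 328300 and 506900 nt with 32, 9, 6 and 1 other genes inside, so that their bins cannot be assigned to one gene. Gm26561 was not called (48, 43 and 46 bins against 16, 6 and 1, adjusted p = 0.0521).

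In the other lines these genes differed from one another. The labels do not say whether the rescue lines came from the same cells as the KO lists, and the Y-linked gene model Gm47283 had 23 to 25 bins in every WT and KO list and 0 in every list of the 3 rescue lines. Dst had 38, 28 and 33 bins in the KO lists and 18, 35 and 21 in the KO_WT lists, with 18, 8 and 3 in KO_5RK. Akap12 had 21, 24 and 28 bins in KO and 23, 30 and 23 in KO_WT. Kat6b had 12, 15 and 16 bins in KO and 26, 30 and 23 in KO_WT, which overlaps with WT. In KO_5RK, Akap12 had 27, 18 and 3 bins and Kat6b 13, 8 and 2. In these 3 genes every KO list held more bins than any KO_13RK list, while the KO_5RK lists overlapped with KO_13RK. Fn1, by contrast, had 0, 2 and 3 bins in KO, 1, 3 and 1 in KO_WT and 1, 0 and 1 in KO_5RK, so that its number was below that of WT in every list of the other 4 lines. Ankrd11 had 2, 2 and 3 bins in KO and 5, 6 and 2 in KO_WT.

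**Figure D4:**
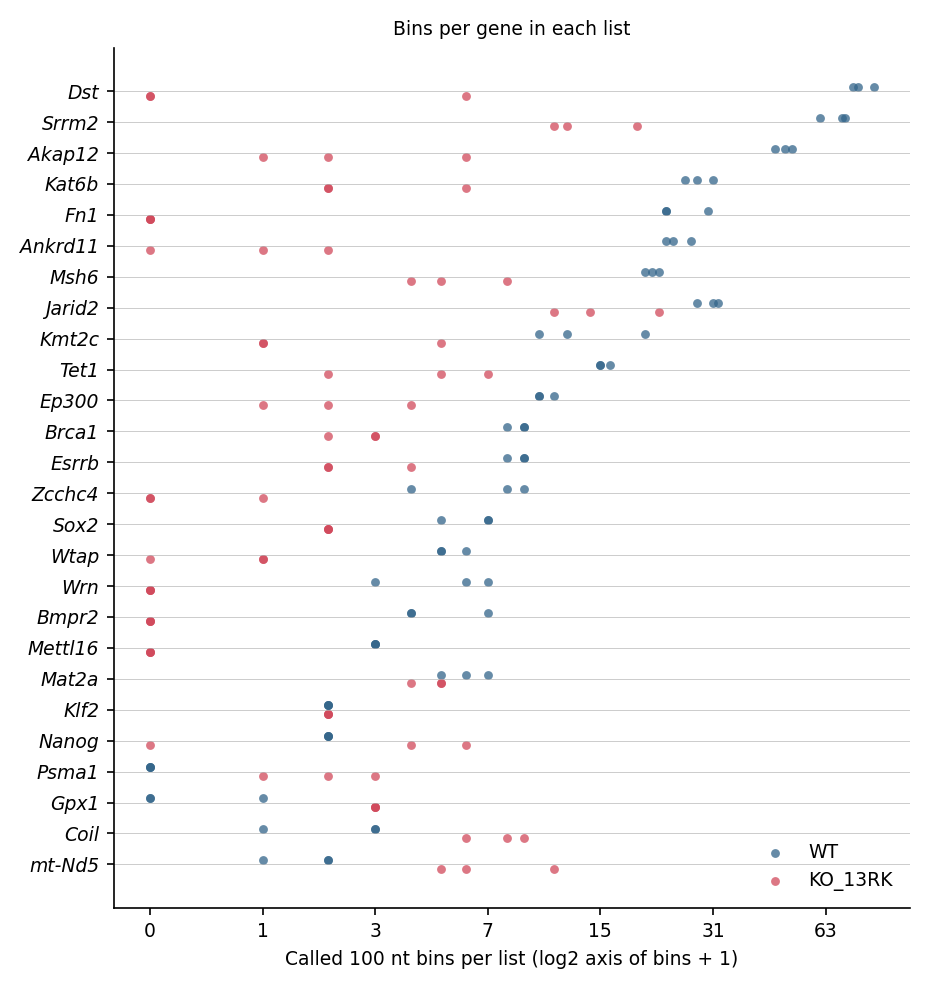
Called bins per list of 26 genes in the 3 WT and 3 KO_13RK lists, on a log2 axis of bins + 1, with 1 point for each list (equal values lie on each other). Dst to Mettl16 lie lower in every KO_13RK list, Psma1 to mt-Nd5 higher, and Mat2a, Klf2 and Nanog overlap.

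Among genes lost as a whole, those with the highest wild-type enrichment values were Ptpn4, Map3k20, St6galnac3, Rgs3, Gm26786, Palld, AW554918 and Acot7. Ptpn4, a protein tyrosine phosphatase gene, had 7, 10 and 4 bins in WT and none in KO_13RK or KO, but 4, 3 and 3 in KO_WT. Its strongest lost bin, chr1:119659768-119659867 on the minus strand (GRCm38), lay 7350 nt from the gene end. Rgs3, a regulator of G protein signalling, had 4, 4 and 6 bins in WT, 0 in KO_13RK and KO, and 2, 4 and 3 in KO_WT. St6galnac3, a sialyltransferase gene, had 6, 3 and 4 bins in WT and 0 in KO_13RK, with 1, 0 and 0 in KO_WT. Map3k20, Palld and Acot7 had 2, 2 and 1 bins in WT and were too low for limma. The kinase-binding protein gene Mbip, with 3 bins in each WT list and 1, 0 and 0 in KO_13RK, held the lost bin chr12:56328404-56328503 (minus strand, 147 nt from the gene end), which all 3 KO_5RK lists called.

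Counts for transcripts of the m6A machinery are set beside the 27.1% of all tested genes called lower. Mettl14 and Mettl3 had no bin in any of the 6 lists, so these lists do not check the METTL14 genotype. In the writer complex, limma called 1 of 4 tested members lower and 0 higher, with a median log2 difference of -0.57 against -0.81 over all tested genes. Wtap, the subunit that anchors METTL3 and METTL14 in nuclear speckles, had 5, 5 and 6 bins in WT and 0, 1 and 1 in KO_13RK (log2 difference -1.99, SE 0.317, adjusted p = 0.0168). Among the other m6A methyltransferases and the S-adenosylmethionine genes, 2 of 6 were lower. Mettl16, which methylates U6 snRNA and Mat2a mRNA, had 3 bins in every WT list and 0 in every KO_13RK list. Zcchc4, which methylates 28S ribosomal RNA, had 8, 4 and 9 against 0, 1 and 0. Mat2a, which encodes the S-adenosylmethionine synthetase and receives its m6A from METTL16, had 6, 5 and 7 bins in WT and 5, 4 and 5 in KO_13RK, which overlap (adjusted p = 0.186). Of 10 tested readers and erasers only Hnrnpc was called, with 3 bins in each WT list and 1, 1 and 2 in KO_13RK. Of 9 tested genes in the arginine methyltransferase list 3 were lower. Prmt7 had 3, 3 and 2 bins in WT and 0 in each KO_13RK list, Carm1 had 4 in each WT list and 1, 1 and 2 in KO_13RK, and Tdrd3, a reader of methylated arginine, had 4 in each against 0, 0 and 1. None of the genes in this paragraph but Mettl16 was called after division by the list total, where Prmt7 fell below the filter and was not tested.

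Genes of DNA repair, which the series title names, had fewer bins in KO_13RK in each of 3 repair lists. In the double-strand break and checkpoint list 13 of 29 tested genes were called lower and 0 higher (median -1.08), in excision and mismatch repair 8 of 27 and 0 (median -1.11), and in crosslink repair 3 of 20 and 0 (median -1.02). These shares were 44.8%, 29.6% and 15.0%, and the share over all tested genes was 27.1% with a median of -0.81. Brca1, which directs homologous recombination, had 9, 9 and 8 bins in WT and 3, 2 and 3 in KO_13RK (log2 difference -1.41, SE 0.153, adjusted p = 0.00467). Its partner Bard1 had 9, 11 and 6 against 2, 2 and 3. Wrn, the Werner syndrome helicase gene, had 7, 6 and 3 bins in WT and 0 in every KO_13RK list. Prkdc, the catalytic subunit of DNA-dependent protein kinase in end joining, had 6, 3 and 7 against 1, 1 and 1. The groups were apart in each, but these genes were chosen as called lower with the largest falls. Bard1 and Prkdc varied between WT lists. Msh6, which recognises mismatches, had 21, 20 and 22 bins in WT and 4, 8 and 5 in KO_13RK, yet 16, 19 and 15 in KO_WT. In KO_5RK it had 15, 16 and 6, which overlaps with KO_13RK, and in KO 0, 2 and 3. Ercc6, which acts in transcription-coupled repair, had 4, 9 and 8 against 1, 0 and 2. Gtf2h1, a subunit of the repair and transcription factor TFIIH, had 3, 4 and 2 against 0 in each list, and the glycosylase gene Neil2 had 5, 3 and 4 against 1 in each. In crosslink repair the called genes were Rev3l, Helq and Ube2t. Rev3l, the catalytic subunit of polymerase zeta, had 8, 8 and 3 bins in WT and 1, 0 and 1 in KO_13RK. The helicase gene Helq had 6, 2 and 8 against 1, 0 and 0, and Ube2t, which encodes the E2 enzyme for FANCD2, had 1, 2 and 3 against 0 in each. After division by the list total, 1 double-strand break gene (Wrn) and 1 excision gene (Gtf2h1) were still called lower and none in crosslink repair, while 1 double-strand break gene was called higher, the checkpoint mediator Mdc1. Ube2t fell below the filter after that division and was not tested.

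Among core and naive pluripotency genes, 8 of 28 tested members were called lower and 0 higher (median -0.80), close to the 27.1% and the median of -0.81 over all tested genes. No member met the rule for a lost or gained gene. The list summed to 170 ± 8.54 bins per list in WT and 88.7 ± 11.9 in KO_13RK (n = 3), 47.8% fewer, against 55.5% over all peaks. Jarid2, a cofactor of Polycomb repressive complex PRC2, had 32, 28 and 31 bins in WT and 14, 22 and 11 in KO_13RK. Tet1, which oxidises 5-methylcytosine in DNA, had 16, 15 and 15 against 7, 5 and 2, and the nuclear receptor gene Esrrb had 9, 8 and 9 against 2, 4 and 2. Esrrb had 11, 9 and 8 bins in the KO lists and 9, 14 and 10 in KO_WT, all above KO_13RK. Its 6, 7 and 3 bins in KO_5RK overlapped with KO_13RK. Sox2, a core pluripotency factor, had 7, 5 and 7 bins in WT and 2 in each KO_13RK list (log2 difference -1.28, SE 0.148, adjusted p = 0.006). The corepressor gene Trim28 had 19, 18 and 18 against 13, 13 and 14. That fall is smaller than the fall of the whole list, and after division by the list total Trim28 was higher in KO_13RK by 0.67 (log2, limma adjusted p = 0.0365). Nr0b1, a repressor expressed in naive stem cells, was the other member called higher after that division, and none was lower. Nanog had 2 bins in each WT list and 0, 6 and 4 in KO_13RK (adjusted p = 0.932), Klf2 had 2 in all 6 lists, and Klf4 had 2, 1 and 3 against 1 in each (adjusted p = 0.192). Pou5f1, which encodes OCT4, had no bin in WT and 1, 4 and 0 in KO_13RK, and Myc had 1 bin in 1 list of each line.

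Both chromatin lists had members called lower and none called higher. Of 33 tested genes of histone methylation and Polycomb, 12 were called lower (median -0.97), and of 32 genes of remodelling, acetylation and DNA methylation also 12 (median -0.95), against 27.1% of all tested genes (median -0.81). The first list summed to 177 ± 14.6 bins in WT and 74.3 ± 14.5 in KO_13RK (n = 3), 58.1% fewer. The second list summed to 185 ± 7.64 bins in WT and 61.3 ± 4.73 in KO_13RK (n = 3), 66.9% fewer. All peaks fell by 55.5%. Kmt2c and Kmt2d, which methylate histone H3 at enhancers, had 20, 12 and 10 against 1, 1 and 5 bins, and 11, 14 and 14 against 2, 2 and 6. Nsd1, which dimethylates lysine 36 of histone H3, had 20, 15 and 18 against 9, 6 and 10, and Ehmt1, which methylates lysine 9, had 6, 9 and 4 against 1, 0 and 2. The acetyltransferase gene Ep300 had 10, 11 and 10 bins in WT and 1, 2 and 4 in KO_13RK. Arid1b, a subunit of the BAF remodelling complex, had 11, 11 and 9 against 3, 2 and 3. The remodelling ATPase genes Chd4 and Ino80, named after their values were seen, had 4, 5 and 5 and 4, 3 and 3 bins in WT and none in KO_13RK. Kat6b, Chd4 and Ino80 were the members of these 2 lists still called lower after division by the list total. After that division the Polycomb genes Suz12 and Cbx7 were called higher. The bins of Chd1, counted among the 12, lie over 1620100 nt and cannot be assigned to that gene alone.

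In TGF-beta, FGF and Wnt signalling 14 of 28 tested genes were lower and none higher (median -1.16), counting Fgfr2, whose bins cannot be assigned to it, against 27.1% of all tested genes. After division by the list total 2 genes of this list were still called lower, Bmpr2 among them, and 0 higher. Bmpr2, a receptor for bone morphogenetic proteins, had 7, 4 and 4 bins in WT and 0 in every KO_13RK list (log2 difference -2.55, SE 0.223, adjusted p = 0.00214). Apc, a scaffold of the beta-catenin destruction complex, had 9, 10 and 10 against 0, 3 and 2, and Lgr4, a receptor for R-spondins, had 10, 8 and 8 against 4, 1 and 1. In the cell cycle and p53 list 4 of 27 tested genes were lower (median -0.66), and 0 after division by the list total. Mdm2, the ubiquitin ligase for p53, had 7, 6 and 6 against 3, 4 and 4. Zmat3, a p53 target, had 4, 6 and 5 against 1, 2 and 0. The spindle genes Mad2l1 and Aurka had 2, 2 and 4 against 0, 0 and 1, and 2, 2 and 2 against 1, 0 and 0.

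Noncoding RNAs and ribosomal protein genes stood at the other end. None of 11 tested long noncoding RNAs and none of 10 tested ribosomal protein genes was called by limma, and none had groups that were apart, against 36.6% of all tested genes. The noncoding RNAs summed to 61.7 ± 4.16 bins in WT and 45.7 ± 2.08 in KO_13RK (n = 3), 25.9% fewer. The ribosomal protein genes summed to 23.3 ± 1.15 and 24.7 ± 8.96, with 20, 35 and 19 bins in the KO_13RK lists, and their median difference was 0.09. Rps27a was lost, with 1 bin in each WT list, and was not tested because its mean over the 6 lists was below 1. Genes with few WT bins enter the test only if KO_13RK kept bins, so these counts are limited by that filter. Malat1 had 22, 30 and 31 bins in WT and 19, 22 and 20 in KO_13RK (adjusted p = 0.107). Neat1, which scaffolds paraspeckles, had 2, 3 and 3 in both lines, and Lncenc1, expressed in naive stem cells, had 7, 5 and 6 against 7, 8 and 7. After division by the list total Lncenc1 was called higher. These 3 were named after their values were seen.

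Few genes had more bins in the mutant line. Of the 8 largest rises whose groups did not overlap, limma called mt-Nd5, Coil, Slc25a5, Gpx1, Ipo7 and Aqp3. mt-Nd5, a mitochondrially encoded subunit of complex I, had 2, 1 and 2 bins in WT and 5, 11 and 6 in KO_13RK (log2 difference 1.60, SE 0.331, adjusted p = 0.0292). Coil, which encodes the Cajal body protein coilin, had 1, 3 and 3 against 9, 6 and 8, with 6, 8 and 5 bins in KO_WT and 2, 2 and 4 in KO. The glutathione peroxidase gene Gpx1 had 0, 1 and 0 against 3 in each list, and Slc25a5, which encodes an ADP/ATP carrier, had 1, 0 and 1 against 5, 3 and 3. The importin gene Ipo7 had 3, 2 and 2 against 5 in each list, and the water channel gene Aqp3 had 0, 1 and 0 against 4, 2 and 2. Alg13 (1, 3 and 3 against 4, 5 and 8) and Slc25a37 (3, 1 and 1 against 5, 4 and 4) were not called, with adjusted p of 0.100 and 0.0631. Among the 39 gained genes, Psma1, a proteasome subunit gene, ranked highest, with 2, 3 and 1 bins in KO_13RK, 0, 3 and 2 in KO and 1 in each KO_5RK list. Its bin chr7:114264607-114264706 on the minus strand lay 106 nt from the gene end. Adamts7, Ric3, Pramel1, Glyctk, Gm43714, Mir6409 and 6330537M06Rik followed, with 1 or 2 bins in each KO_13RK list.

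Markers of other cell types were checked because the lines could differ in the cells they hold. Of 18 fibroblast and feeder markers 8 had a bin, and the list summed to 34, 27 and 29 bins in the WT lists and 4, 1 and 3 in the KO_13RK lists, of which Fn1 gave 30, 23 and 23 in WT and 0 in KO_13RK. The trophectoderm markers summed to 7, 9 and 7 against 2, 6 and 4 bins, with Tead4 called lower (4, 5 and 3 against 1, 2 and 2). The primitive endoderm markers summed to 3, 7 and 6 against 5, 3 and 1, and the markers of the primed state to 3, 6 and 5 against 1, 3 and 6, with none called. A peak does not measure expression, and the part of cell makeup in the results was not tested.

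The bins lost between WT and KO_13RK were called unequally in the other lines, with which this comparison shares the WT lists. Of the bins in all 3 WT lists, a KO_WT list called 65.5% ± 2.89, a KO_5RK list 52.5% ± 6.15, a KO_13RK list 41.8% ± 2.51 and a KO list 14.5% ± 1.51 (SD, n = 3). List length followed the same order, with 15206 peaks on average in KO_WT, 12298 in KO_5RK, 10105 in KO_13RK and 7777 in KO. The part of list length in these shares was not tested. KO_13RK did not overlap with any other line in this share, at an exact permutation p of 0.1 for each of 3 comparisons (adjusted p = 0.1). Of the 4294 lost bins, a KO_WT list called 41.6% ± 4.23, a KO_5RK list 24.9% ± 6.37 and a KO list 5.71% ± 0.504. Of the 140 gained bins, the shares were 43.3% ± 9.32, 44.0% ± 2.18 and 41.2% ± 6.94. Of the 871 lost genes, 194 were called in all 3 KO_WT lists and 182 in none, and 447 were called in no KO list. A KO list held only 4373 genes on average. The same counts over all genes called in every WT list were not made, so these are not read as a trait of the lost genes.

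**Figure D5:**
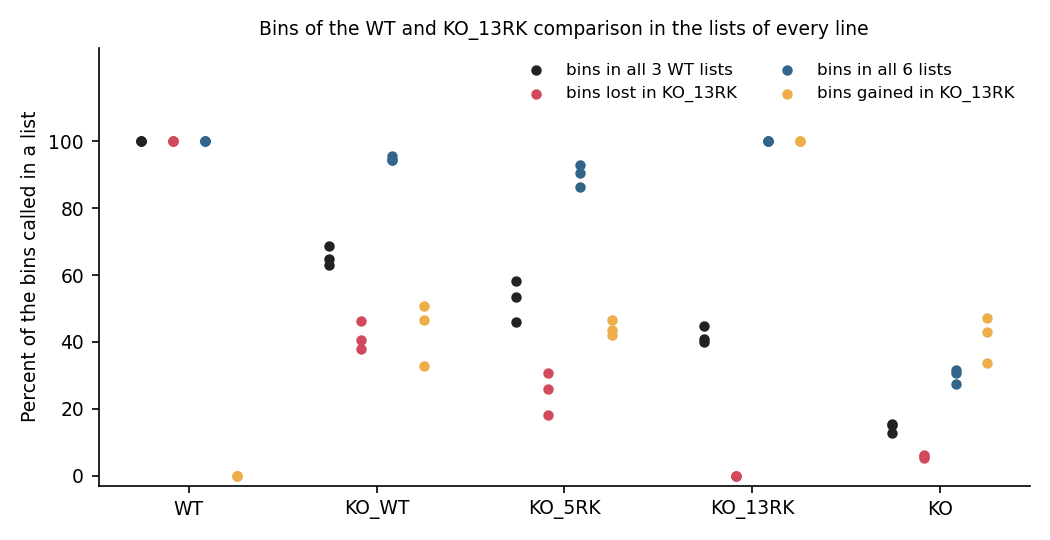
Percent of 4 sets of bins called in each list of the 5 lines, with 1 point for each list. The sets are fixed by the WT and KO_13RK lists, so their 0 and 100% there are by construction, and lost bins were called in 38.0% to 46.3% of cases in KO_WT lists and in 5.15% to 6.12% in KO lists.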

How the data were processed

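RNA of each line was fragmented, immunoprecipitated with an m6A antibody and sequenced, per the labels' protocols. The submitters' processing notes name GRCm38, STAR 2.5.3a and kallisto 0.43.0 without their roles, and they do not say which tool called the peaks. Each deposited list has 1 row for each 100 nt bin. The authors' enrichment score has no stated scale and was used for ranks and filters inside one list alone, as were the deposited p-value and q-value (all q at most 0.04999).

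Presence of bins and numbers of bins per gene were computed from the deposited lists, with symbols for 99.8% of genes and RefSeq gene spans (GRCm38.p6) for place. limma 3.58.1 (R 4.3.3, trend) was fitted to log2(bins + 1) of genes with a mean of at least 1 bin, with Benjamini-Hochberg adjustment over 5419 genes at 0.05. Means over lists were compared by two-sided exact permutation tests. The replicate numbers did not pair the lists (correlations of same-numbered deviations 0.010, 0.0087 and 0.0053). The fit was tested on simulated data.

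Members, gene lists and the naming rule were chosen with earlier results of these data known. The rule named 11 fixed genes, up to 4 lower and 3 higher members of each list, the 8 lost and 8 gained genes and 5 lost and 5 gained bins of highest enrichment percentile, and the 8 largest falls and rises without overlap. Genes named outside it are marked, except Mdc1, Nr0b1, Suz12 and Cbx7, which are given because they were called higher after division by the list total. The search of gene starts, the setting apart of 12 gene models whose bins cover over 200000 nt, and the simulation by call rates, which replaced a first one by Poisson counts, were also chosen after the data were seen. Alternatives were a stricter q, an enrichment filter, equal list length, calls in 2 lists, merged bins, other scaling, filters and pseudocounts, all 15 lists, a replicate block and leaving out each list. The 15 input libraries were not analysed here.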

Additional observations from a re-analysis of the deposited data

How the results depend on the processing

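Peak and gene numbers, the start share and the end share kept their direction under every alternative run on them. None of these measures was run at equal list length, and neither share was run with the enrichment filter. Without each list in turn, peaks differed by -13015.5 to -12319.5 and genes by -2719.5 to -2450.5 per list, the start share by 1.37 to 2.92 percentage points and the end share by -4.42 to -2.33. With the replicate block (paired differences, exact sign-flip permutation p = 0.25, the smallest possible), the differences were the same. The counts were less stable. Lost bins (4294) became 1911 with the enrichment filter, 1147 at equal list length and 9683 with calls in 2 lists enough, and lost genes (871) became 285 at equal length and 1679 with calls in 2. Gained bins (140) became 62 at q under 0.005, 32 with the enrichment filter, 480 at equal length and 822 with calls in 2, and gained genes (39) became 25 with the enrichment filter, 299 at equal length and 264 with calls in 2. With 1 list left out, where 2 calls are enough, lost bins were 5011 to 6242, gained bins 199 to 382, lost genes 1115 to 1336 and gained genes 70 to 124.

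The limma count of lower genes (1467) was 788 with the enrichment filter, 131 at equal length, 186 after division by the list total, 507 with the replicate block and 489 to 1445 without each list. The count of higher genes (23) was 13 at q under 0.005, 3 with the enrichment filter, 96 at equal length, 87 after division, 6 with the replicate block, 46 with no filter on the mean and 16 to 26 without each list. An added test kept each gene's spread from falling below the trend over genes of like bin number. It was run with 4 references after the data were seen, and the count depends on which is taken. With 4 degrees of freedom, those the lists provide, it called 0 genes lower and 0 higher, where limma called 1467 and 23. With 8 it called 461 and 1, with 20 it called 1290 and 12, and with a normal reference 1740 and 24. In the same simulation, which held no general fall, these recovered 0, 10, 75 and 114 of 200 changed genes and called 0, 0, 3 and 12 unchanged ones. Of the 53 genes called lower that the naming rule for genes or the next largest falls gave (Chd4, Ino80 and Mbip are not counted), 15 were still called after division, 15 at equal length, 31 with 8 degrees of freedom and 14 under all 3. Those 14 were Mettl16, Fn1, Wrn, Kat6b, Bmpr2, Ptpn4, St6galnac3, Rgs3, Gm26786, Dst, Srrm2, Akap12, Gm47283 and Ankrd11. Most of these genes were chosen from the same bin numbers, as called lower, lost or with the largest falls. The counts are therefore no independent support for them. Prmt7, Helq, Ube2t, Ercc6, Gtf2h1, Mad2l1 and Aurka fell below the filter at equal length and were not tested there. Prmt7 and Ube2t were not tested after division either. After division the log2 difference turned to 0.15 for Jarid2, 0.67 for Trim28, 0.058 for Nsd1, 0.036 for Fgfr2 and 0.31 for Mdm2, and at equal length to 1.01 for Trim28 and 0.023 for Kmt2d. The cause of these changes was not tested. Read depth per list is unknown, and a bin that is not called is not shown to lack m6A.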

Other observations

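Peaks on the sex chromosomes and in mitochondrial RNA departed from the general fall. X-linked peaks numbered 401, 391 and 388 in the WT lists and 304, 280 and 291 in the KO_13RK lists, 25.8% fewer against 55.5% fewer over all peaks. The X-linked share was 1.73% ± 0.011 in WT and 2.90% ± 0.235 in KO_13RK (SD, n = 3, exact permutation p = 0.1, the smallest possible). It was 3.37% ± 0.0423 in KO, 2.83% ± 0.0569 in KO_WT and 2.69% ± 0.102 in KO_5RK, so that every list of the other 4 lines lay above every WT list. limma called 13 of 120 tested X-linked genes lower (10.8%) and 2 higher, with a median log2 difference of -0.26, against 27.4% of 5299 genes elsewhere with a median of -0.85. The autosomes were not uniform either. Chromosomes 1 and 14 had the largest falls among them, with 65.0% and 66.4% fewer peaks. On chromosome 1 limma called 38.0% of 350 tested genes lower, and on chromosome 14 it called 44.1% of 204. The cause was not tested.

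On the Y chromosome the gene model Gm47283 had 25, 25 and 24 bins in WT, 25, 23 and 23 in KO, and none in any list of KO_13RK, KO_WT or KO_5RK. This model was named after its values were seen. Reads of copies on the Y chromosome can be shared between gene models, the labels do not say whether the rescue lines came from the same cells as KO, and the part of either was not tested. Mitochondrial transcripts had 24, 24 and 34 bins in WT and 26, 44 and 38 in KO_13RK, and of the 21 mitochondrial bins called in all WT lists a KO_13RK list called 95.2% ± 4.76.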
